A study of Drosophila melanogaster with 4 samples.

Results

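Regions of H3K36me3 enrichment were examined in sequence of the Drosophila melanogaster genome assigned to heterochromatin by position, and on chromosome 4. They were chosen by position alone, from the authors' combined list of enriched regions: every region on chromosome 4, on the autosomal scaffolds 2LHet, 3LHet, 2RHet and 3RHet, on XHet and YHet, on the unplaced sequence U, and in the 1 Mb next to the centromere of the arms 2L, 3L, X and 3R. This gave 285 of the 3981 regions in the combined list, and the same positions held 243 of 3785 regions in the list of replicate 1 and 241 of 3956 in the list of replicate 2. Of the 285, 84 lay on chromosome 4, 64 on the 4 autosomal Het scaffolds (4 on 2LHet, 28 on 2RHet, 21 on 3LHet and 11 on 3RHet), 3 on XHet, 5 on YHet, 41 on U and 88 next to a centromere (27 on 2L, 8 on 3L, 16 on X and 37 on 3R). The other 3696 regions, on the rest of the large arms, served as the comparison. This comparison took in the whole of 2R, including the sequence next to its centromere. The 1 Mb limits are distances alone, and the chromatin state of these intervals was not measured. All positions are in the FlyBase Release 5 coordinates named in the file headers.

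The chromatin was taken from nuclei of last-instar larvae (Oregon-R strain, wild-type genotype) and precipitated with an H3K36me3 antibody from the supplier abcam. There were 4 libraries, 2 ChIP replicates and 2 inputs, and the deposited files used here were 1 list per ChIP replicate and 1 combined list. All libraries shared genotype and stage, so the comparisons were between parts of the genome and between the replicates. Whether each replicate was a separate collection is not in the labels, so their spread may be technical, and neither the sex of the animals nor the mixture of tissues is known.

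Trimethylation of lysine 36 of histone H3 is placed by the enzyme Set2, which travels with elongating RNA polymerase II, so the mark lies over the bodies of transcribed genes. Heterochromatin is the repeat-rich, gene-poor chromatin around centromeres and over most of the Y chromosome, marked by methylation of lysine 9 of histone H3 and bound by the protein HP1a. Chromosome 4 is a small autosome that carries both HP1a and a dense set of active genes, which are bound by the chromosome-specific protein POF. Among its genes are cubitus interruptus (ci), the transcription factor of Hedgehog signalling, the eye regulators ey and toy, the Wnt pathway factor pan and the zinc finger gene zfh2. A Release 6 gene table names 114 genes on chromosome 4, of which 80 are protein-coding. No gene annotation in the coordinates of the lists was used, so no region is assigned to a gene.

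Listed H3K36me3 regions covered a small part of most sequence examined, but not of chromosome 4 or of the proximal 3R. Which bases the reads could be placed on is not known, so sequence without a region is not shown to lack the mark. Over all 24.7 Mb examined, regions covered 4.56% of bases in replicate 1 and 4.10% in replicate 2, against 19.6% and 19.9% of the remaining 115 Mb of the large arms. The mean was 4.33% ± 0.331 (SD, n = 2) against 19.7% ± 0.246, a difference of -15.4 percentage points ± 0.577, larger than the spread between the replicates. With 2 replicates the exact sign-flip test cannot give a two-sided p below 0.5, so no comparison of covered share has a test call, and differences are set against the SD of the replicates.

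The most covered compartments kept the same order in both replicates. Chromosome 4 was the most covered, at 33.0% in replicate 1 and 27.6% in replicate 2. The proximal 3R followed at 20.9% and 21.4%. XHet had 9.96% and 9.71%, next to the proximal 2L at 9.71% and 8.91%; these 2 sequences differed by less than the spread between the replicates of 2L, and the proximal X was close behind at 7.93% and 8.26%. The proximal 3L had 2.54% and 2.22%, 2LHet 2.28% and 2.57%, YHet 2.52% and 1.75%, 3LHet 2.29% and 1.61%, 2RHet 1.63% and 1.38%, and 3RHet 1.51% and 1.13%. Replicate values overlapped between neighbours in this last series, so their order is not resolved. U was the least covered, at 0.821% and 0.793%. The lead of chromosome 4 over the rest of the large arms was 10.5 percentage points ± 4.09. In the mean of the replicates it was lost after every region scored under its list's median was left out. Chromosome 4 was then covered to 13.6% and the rest of the arms to 13.9%, a difference of -0.313 percentage points. Under this filter the replicates lay far apart, with a change in covered bases of chromosome 4 of -41.1% from replicate 1 to replicate 2. The mean therefore does not stand for each replicate.

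**Figure D1:**
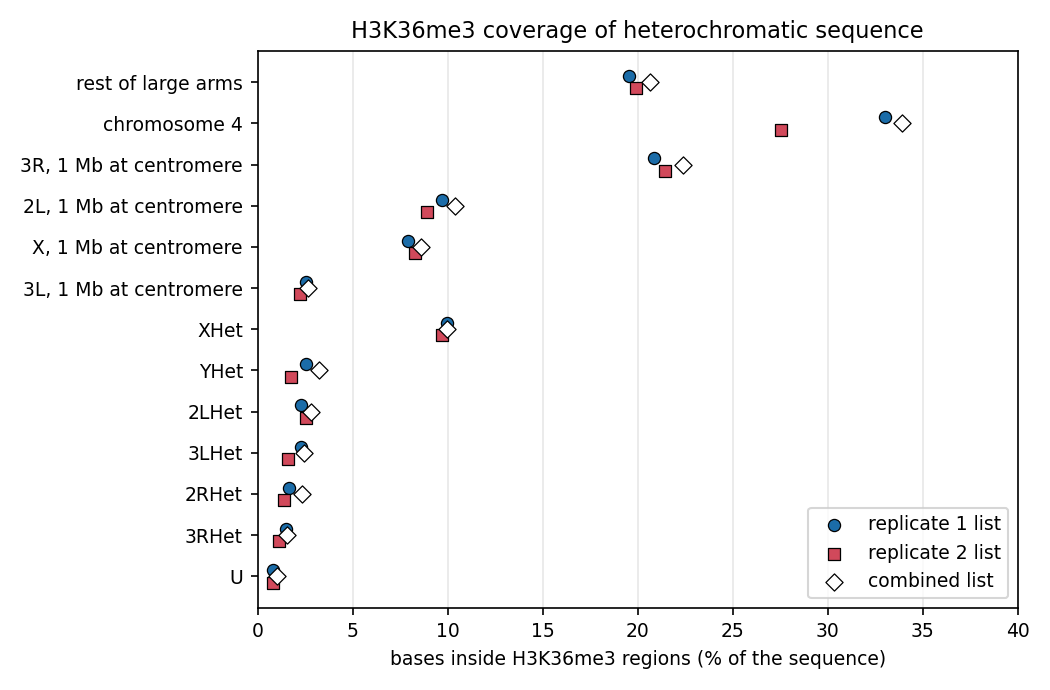
Share of bases inside H3K36me3 regions (horizontal axis, percent) in each sequence examined and in the rest of the large arms. Each of the 3 lists has 1 symbol. Chromosome 4 lies at 33.0% and 27.6% in the replicates, to the right of the rest of the arms at 19.6% and 19.9%, and the Het scaffolds and U lie far to the left.

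On chromosome 4 the high coverage came with more regions per Mb, not with wider ones. The chromosome held 57.7 regions per Mb in replicate 1 and 53.3 in replicate 2, against 30.8 and 32.3 on the rest of the large arms. The median region width was 5343 bp for replicate 1 and 4408 bp for replicate 2, compared with 4957 bp and 4719 bp on the rest of the arms, so the replicates of chromosome 4 lay on either side of these values. In the combined list 12 of the 84 regions were 10 kb or wider, which is near the 16.9% of all its regions. In replicate 1 such regions were 12 of 78, against 579 of 3542 on the rest of the arms. In replicate 2 they were 6 of 72, a smaller share than the 579 of 3715 on the rest of the arms. The median distance to the next region was 4693 bp in the list of replicate 1 and 5240 bp in that of replicate 2, against 6564 bp and 5727 bp on the rest of the arms, a difference of -1179 bp ± 979. Distances under 1 kb were no more frequent than elsewhere, at 18.2% and 9.86% against 18.9% and 20.3%. All 84 combined-list regions had another within 25 kb, as did 93.4% of all combined-list regions. Regions began at position 59521 and the longest empty stretch was 66.2 kb, from 808639 to 874828.

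No 100 kb window of chromosome 4 was empty. Its 14 windows, the last one shorter, ranged from 13.4% covered at the start of the sequence to 45.1% at its end (mean of the replicates), with a median of 31.6%. On the rest of the large arms, 198 of 1149 whole windows, 17.2%, were empty in both replicates, and the median window was 16.5% covered. Replicate 2 was lower than replicate 1 in 14 of 14 windows of chromosome 4. On the rest of the arms it was lower in 388 of 1149 windows, 33.8%, and higher in 563. The 198 windows empty in both replicates count in that total and could not differ. The combined list covered 57.6% of the last window, more than the 47.8% of replicate 1 and the 42.4% of replicate 2.

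The regions of chromosome 4 that stood out by score or width in the combined list were as follows. The score is the authors' deposited value for each region; no source used here states its unit, and it is used only within a list. Where a combined-list region was several regions in a replicate list, the highest of their scores stands for that replicate, and such cases are named. The best scored region found in both replicates ran from 668528 to 679895, and scored 2.27 in the combined list, 2.39 in replicate 1 and 2.19 in replicate 2. The next ran from 875060 to 887597, with 2.25, 2.37 and 2.14. The widest was the 15119 bp region from 363200 to 378318, with scores of 2.05 in replicate 1 and 1.73 in replicate 2, and the second widest, 14014 bp from 631666 to 645679, was 1 region in replicate 1, with 1.41, and 2 in replicate 2, with 0.692 and 1.05. Each of these 4 regions ranked lower in replicate 2.

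Coverage next to the centromere was below that of the remaining arm on 2L, 3L and X, but not on 3R. The 1 Mb of 3L was covered to 2.38% ± 0.225 (SD, n = 2) against 18.9% ± 0.207 on the rest of the arm, a difference of -16.6 percentage points ± 0.431. On X the difference was -11.5 percentage points ± 0.018 and on 2L it was -8.38 percentage points ± 0.721. On 3R the interval was covered more than the rest of the arm, 21.2% ± 0.42 against 19.9% ± 0.314, a difference of 1.25 percentage points ± 0.106, which was 7.23 with an interval of 0.5 Mb and 6.98 with one of 2 Mb. Both replicates gave the same direction on each arm. For the 1 Mb of 3R the direction of the mean depended on weak regions. After the same removal of regions scored under the list's median, its difference was -0.456 percentage points. This removal was not combined with the intervals of 0.5 Mb and 2 Mb.

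Within these intervals, coverage was broken into blocks. Both replicates left the same number of 100 kb windows empty: 3 of 10 on 2L, 5 of 10 on 3L, 6 of 10 on X and 1 of 10 on 3R. On 3R the window from 200001 to 300000 was covered to 56.1% in replicate 1 and 54.3% in replicate 2, the most of any proximal window, whereas the next window outward had 3.95% and 3.82%. This window held the interval's best scored region in the combined list, from 229258 to 234788, with replicate scores of 2.46 and 2.29. In replicate 2 the region from 475320 to 484221 scored higher, at 2.40. The second widest region of the interval, 17628 bp from 254824 to 272451, also lay in this window and scored 2.16 and 2.24. The widest, 18368 bp from 148262 to 166629, lay closer to the centromere and scored 1.93 and 1.82. On X the block from 21822828 to 21922827 was covered to 41.0% and 41.7%. In the combined list it held 2 regions over 10 kb, from 21846211 to 21857345 and from 21863875 to 21874260. The former was 2 regions in replicate 1, of 5172 and 5841 bp, and no proximal X region of replicate 1 was wider than 9321 bp. The next window toward the centromere was covered to 12.3% and 11.0%. Beyond its regions lay 468 kb without a region, from 21944991 to 22413170.

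**Figure D2:**
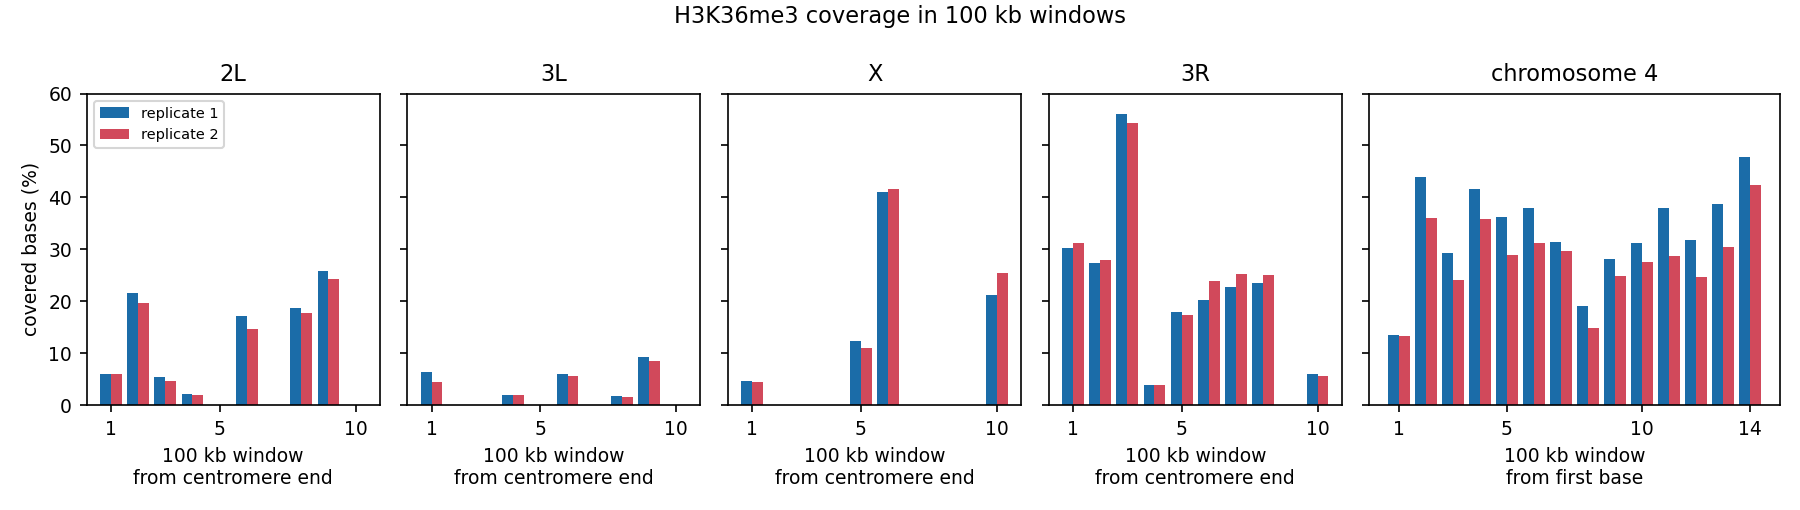
Share of bases inside H3K36me3 regions (vertical axis, percent) in 100 kb windows counted from the centromere end of 2L, 3L, X and 3R and from the start of chromosome 4, with 1 bar per replicate. The third window of 3R reaches 56.1% and 54.3%, 6 of 10 windows of X are empty, and all 14 windows of chromosome 4 are covered, each less in replicate 2.

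On 2L the best scored proximal region found in both replicates ran from 22164391 to 22169232, with scores of 2.38 and 2.33 that placed it at percentiles 96.9 and 92.4 of the replicate lists. The proximal 3L had no region of that rank. Its best ran from 23738630 to 23745330, with scores of 1.58 and 1.23, at percentiles 45.0 and 32.0. The limit of 1 Mb fell in sparse sequence on 3 arms. The regions just inside and just outside it began at 22121407 and 21757700 on 2L, with combined scores of 1.77 and 1.21, at 23708441 and 23332413 on 3L, with 1.24 and 0.81, and at 21470776 and 21259593 on X, with 2.11 and 1.63. On 3R they began at 996828 and 1025111, with 1.29 and 0.679, and the inner one crossed the limit.

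The autosomal Het scaffolds held few, narrow and weakly scored regions, and each scaffold had long stretches without any. There were 5.50 regions per Mb in replicate 1 and 5.04 in replicate 2, with a median width of 2843 bp in the former and 2301 bp in the latter. On 3RHet the sequence up to position 1680316, which is 66.7% of the scaffold, held no region. Another region lay within 25 kb for 10 of 11 regions of 3RHet, 24 of 28 of 2RHet and 14 of 21 of 3LHet, the last well under the 93.4% of all regions. On 2RHet a stretch of 1442 kb, from 1334232 to 2775873, was empty. On 3LHet the longest empty stretch ran from 710385 to 1388993, and on 2LHet the last 54.1% of the scaffold was empty. Ranked by the combined list, the best scored region found in both replicates ran from 594184 to 601726 on 3LHet. Its replicate scores were 1.94 and 1.69, at percentiles 70.3 and 54.3. In replicate 2 the highest score on 3LHet was 1.94, in a different region. The widest was the 10660 bp region of 3LHet from 2250646 to 2261305, which scored 1.05 in replicate 1 and was 2 regions in replicate 2, with 1.07 and 0.583.

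Both sex-chromosome scaffolds had their regions in a single cluster. The 3 regions of XHet lay between 58312 and 87224. The widest, from 58312 to 69933, scored 1.32 in replicate 1 and was 2 regions in replicate 2, with 1.32 and 0.702. The one from 76030 to 81773 scored 2.21 and 2.04, and the one from 84300 to 87224 scored 1.75 and 1.81. The 5 regions of YHet lay between 305604 and 339277, and the first 88.1% of the scaffold was empty. Of these, the region from 336338 to 339277 scored 1.99 and 1.95, the region from 305604 to 307909 scored 1.70 and 1.22, and the region from 326409 to 328714 scored 0.983 and 0.846. The region from 311788 to 313838 was found in replicate 1 alone, with 1.21, and the region from 319414 to 321038 in neither replicate list.

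The 41 regions of U were scattered, with 12 having a neighbour within 25 kb, against the 93.4% of all regions, and 8 lying in its initial 5 Mb. Neighbouring positions on U need not be neighbours in the genome, since the sequence joins pieces that were not placed. Several scored among the best of the replicate lists. Among those found in both replicates, and named here after their values were seen, the region from 8907368 to 8909752 scored 2.84 and 2.61, at percentiles 100.0 and 98.9. The region from 6384243 to 6389008 scored 2.57 and 2.82, at percentiles 99.2 and 99.9, and the region from 7541801 to 7544586 scored 2.43 and 2.73, at percentiles 97.9 and 99.6. The widest region of U, from 1178810 to 1187122, scored 1.55 in replicate 1 and was 2 regions in replicate 2, with 0.409 and 1.35. The next, from 5767192 to 5773024, scored 2.02 and 2.04.

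The score rose with region width in every list, so scores were also compared among regions of similar width. Spearman's rho between width and score was 0.815 over the 78 regions of chromosome 4 in replicate 1 and 0.80 over the 72 in replicate 2, 0.438 and 0.412 over the 29 regions of U in each, and 0.725 and 0.753 over the rest of the arms. These are descriptions across regions of 1 library each. In the combined list rho was 0.254 over the 41 regions of U and 0.767 over the rest of the arms. In the replicate lists, 50% of all regions reach the list's median score by definition. On chromosome 4 these were 25 of 78 in replicate 1 and 16 of 72 in replicate 2, and on the autosomal Het scaffolds 4 of 48 and 4 of 44. The median score percentile was 28.1 and 27.6 on chromosome 4, 13.8 and 12.1 on the autosomal Het scaffolds, 29.4 and 33.9 on U, and 53.2 and 47.8 on the proximal 3R, against 51.4 and 51.7 on the rest of the arms.

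Ranked within 4 equal width classes per list, chromosome 4 and the autosomal Het scaffolds were below the middle, while U and YHet were above it. The median percentile within the class was 29.4 and 22.0 on chromosome 4, and 19 of 78 and 9 of 72 regions were above the median of their class, against 50% of all regions in replicate 1 and 50.1% in replicate 2. On the autosomal Het scaffolds it was 23.8 and 23.4, with 11 of 48 and 10 of 44 above. On U it was 75.3 and 78.4, with 22 of 29 and 24 of 29 above. The 21 regions of U in the narrowest class of each replicate list had medians of 77.7 and 80.3. The second class of U was also above the middle, at 73.4 over 5 regions in replicate 1 and 65.2 over 4 in replicate 2. The third class was below the middle in both replicates, with 43.8 over 4 regions in replicate 2. The 1 region of the widest class in replicate 1 had 8.03. In the combined list the second class of U was below the middle and the third above it. These classes hold few regions, so an origin in the narrow regions alone is not shown. All 4 YHet regions of replicate 1 and all 3 of replicate 2 were above their class median, with medians of 88.2 and 87.2. For the proximal 3R the medians were 55.9 and 49.4, close to the 50.9 and 51.0 of the rest of the arms.

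**Figure D3:**
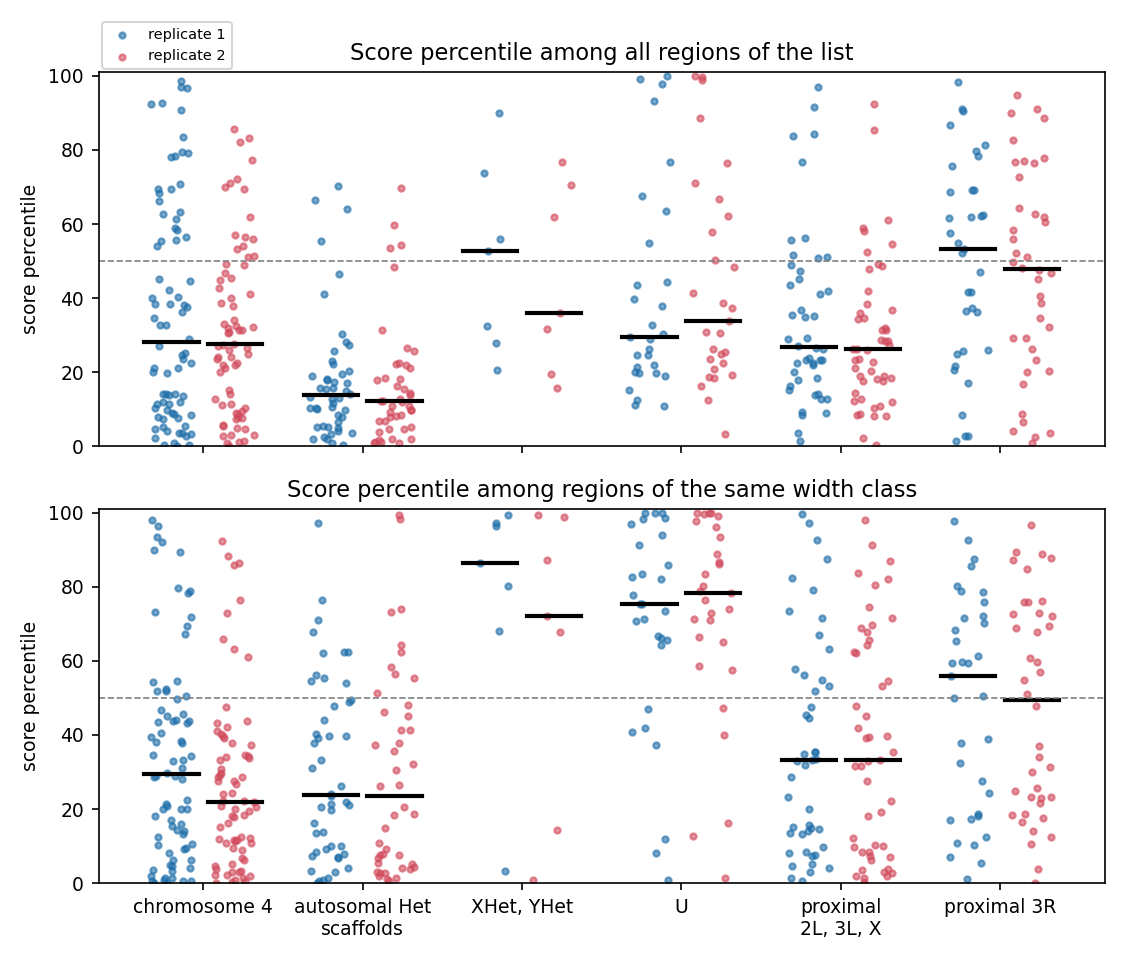
Percentile of the authors' score of each region among all regions of its replicate list (upper panel) and among regions of the same width class (lower panel), with black bars for medians and a dashed line at percentile 50. The median for U rises from 29.4 and 33.9 in the upper panel to 75.3 and 78.4 in the lower, while that for chromosome 4 goes from 28.1 and 27.6 to 29.4 and 22.0.

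The 2 replicate lists differed more on chromosome 4, on the autosomal Het scaffolds and in several other compartments than on the rest of the arms. Of the 84 combined-list regions of chromosome 4, 63 overlapped a region in both replicate lists by at least 1 bp, which is 75.0% against 89.3% of all combined-list regions. Replicate 1 alone held 15 more, against 2.11% of all regions, replicate 2 alone held 0, against 4.6%, and 6 were in neither, against 4.02%. On the autosomal Het scaffolds 38 of 64 were in both, 11 in replicate 1 alone, 3 in replicate 2 alone and 12 in neither. On U these numbers were 26, 3, 2 and 10 of 41, and next to the centromeres 79, 2, 3 and 4 of 88. The Jaccard index is the shared bases over the bases covered in either replicate. It was 0.822 on chromosome 4, 0.679 on the autosomal Het scaffolds, 0.832 on U and 0.930 on the rest of the arms. Next to the centromeres it was 0.789 on 3L, 0.878 on X, 0.894 on 2L and 0.905 on 3R. With few regions each, YHet had 0.691 and XHet 0.975.

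Most of the bases that replicate 2 lacked on chromosome 4 were in shared regions, though a smaller share than on the rest of the arms. Whether they lay at the edges or inside these regions was not measured, and 8 combined-list regions were split in replicate 2. Replicate 1 covered 446 kb and replicate 2 covered 372 kb, of which 369 kb were shared. Of the 76.8 kb in replicate 1 alone, 52.5 kb, or 68.3%, lay in regions that overlapped a replicate 2 region, and 24.4 kb in regions with no overlap. On the rest of the arms 85.3% of the bases in replicate 1 alone lay in regions that overlapped a replicate 2 region. Replicate 2 alone covered 3.32 kb. Where 1 region matched exactly 1 region, 47 of 57 pairs on chromosome 4 were narrower in replicate 2, against 50% of such pairs in the genome, and the median ratio of widths was 0.945. On the autosomal Het scaffolds 29 of 34 pairs were narrower and on the proximal 2L 16 of 18, while on U it was 11 of 25 and on the proximal 3R 17 of 32. The 15 regions found in replicate 1 alone were narrow, from 1274 to 2925 bp in the combined list, and had low scores, at a median percentile of 7.98 and at most 22.4 in replicate 1.

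The shared regions of chromosome 4 also ranked lower in replicate 2, and the better scored ones did so throughout. Of the 63 regions in both lists, 49 had a lower score percentile in replicate 2, against 39.7% of all regions in both lists, with a median change of -8.74 percentile points. Split at percentile 50 of the combined list, a limit set after the values were seen, 23 regions lay at or above it, and 23 of 23 were lower, with a median change of -17.9, from -39.3 to -0.68. Among the other 40, 26 were lower, with a median change of -4.42. On the rest of the arms 830 of 1912 regions at percentile 50 or more were lower, with a median change of 1.10. The largest falls were from 92.4 to 53.2 in the region from 328423 to 334973, from 68.3 to 37.8 in the region from 1076986 to 1081491, and from 98.5 to 69.5 in the region from 156803 to 165155. The largest rises, 18.8, 14.6 and 8.02, were in the regions from 579987 to 591996, from 1325425 to 1334343 and from 127300 to 130493, but the former pair were split in replicate 2 and took the highest of their scores, 0.593, 0.664 and 2.05 in the one and 1.60 and 1.19 in the other. Without split regions, an alternative chosen after seeing the data, 44 of 55 were lower in replicate 2, against 39.7% of all such regions, and 21 of 21 at or above percentile 50.

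**Figure D4:**
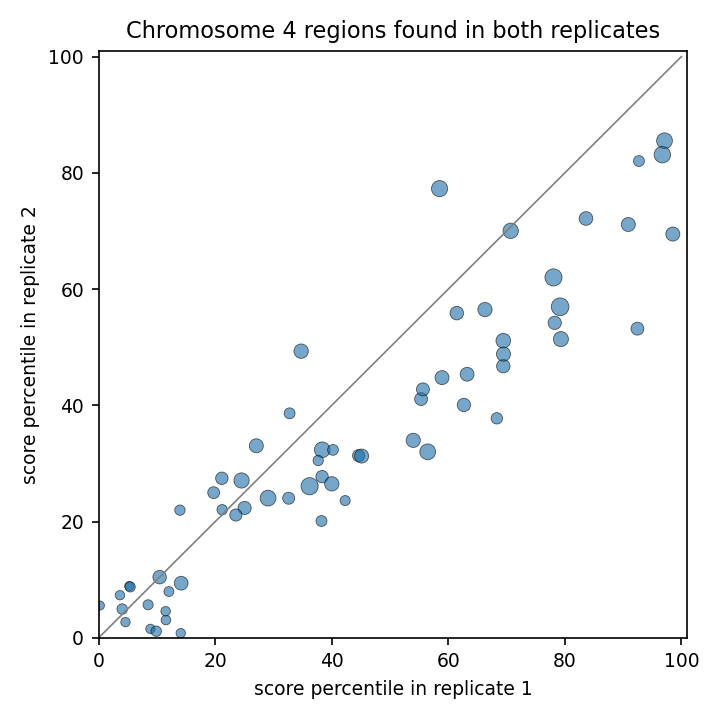
Score percentile in replicate 1 (horizontal axis) and in replicate 2 (vertical axis) of the 63 chromosome 4 regions found in both lists, with symbol area growing with width and a grey line of equality. Of these, 49 lie below the line, and the changes reach -39.3 percentile points among the higher ranked regions.

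Falls also outnumbered rises in several other compartments. Against the same 39.7% of all regions in both lists, the percentile was lower in replicate 2 in 25 of 38 regions of the autosomal Het scaffolds, 18 of 24 of the proximal 2L, 6 of 6 of the proximal 3L and 3 of 3 of YHet. It was lower in 8 of 26 regions of U, 1 of 3 of XHet, 6 of 15 of the proximal X and 12 of 34 of the proximal 3R. Neighbouring regions share a library and their surroundings and are not replicates, so no test across regions is given. The lists give no read counts, so the depth of the 2 replicates was not compared.

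Several of the best scored entries of the combined list in the sequence examined were in neither replicate list. Of the 285 regions, 33 were found in neither replicate, out of 160 such regions in the whole combined list. These were narrow, with a median of 1174 bp, and the narrowest combined region was 1001 bp wide, against 1301 and 1305 bp in the replicate lists. Of 205 combined regions under 1500 bp, 35 were among the 285, and 6 had a score of 2 or more; all 6 were among the 285, while the 170 on the rest of the arms reached 1.30 at most. The highest score of the whole combined list, 3.34, belonged to the 1092 bp region of U from 9413322 to 9414413. Second were a 1001 bp region on chromosome 4 from 612675 to 613675 and a 1001 bp region on U from 6097920 to 6098920, both with 3.07 and the same deposited score to the last digit. The other 3 were on 2RHet from 227078 to 228078, with 2.92, on U from 9339754 to 9340811, with 2.75, and on the proximal 2L from 22457956 to 22459111, with 2.17. With replicate maxima of 2.92 and 3.00, the leading values exceed any in the replicate lists, but scores of different lists are not on a scale known to be common. Among the 160 regions in neither list, 7 had a score of 2 or more, and all 7 were among the 285; the further one, named after its value was seen, ran from 7584345 to 7586465 on U, with 2.56. These entries have no replicate value.

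**Figure D5:**
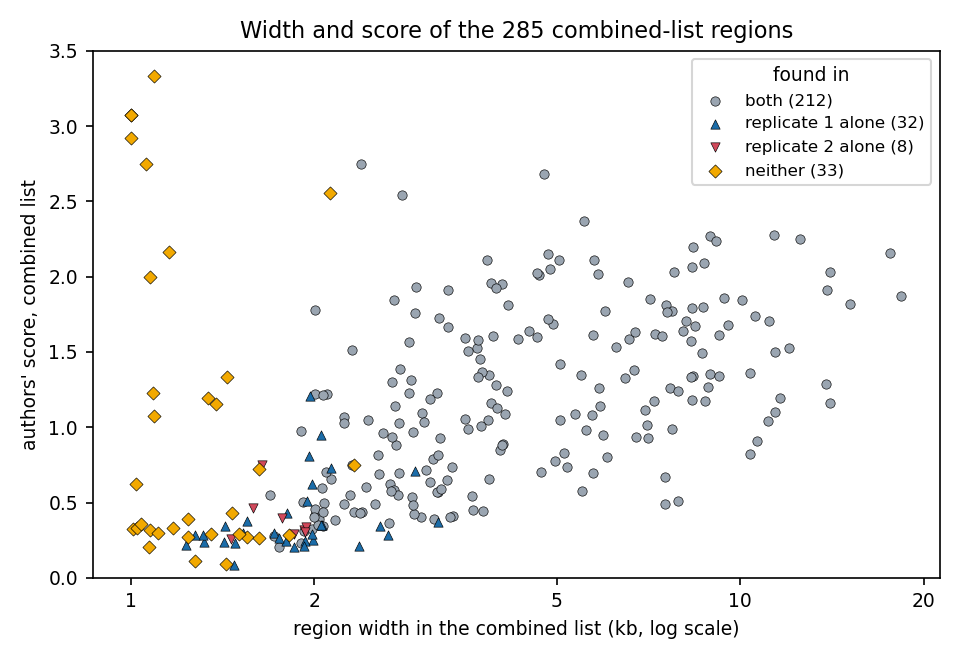
Width (horizontal axis, kb, log scale) and authors' score (vertical axis) of the 285 combined-list regions, by whether they overlap both, 1 or neither of the replicate lists. The 212 regions in both lists reach widths of 18368 bp and scores of 2.75. The regions in 1 list are narrow and low, and 7 of the 33 in neither lie at scores of 2 or more.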

How the data were processed

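The submitters' processing notes name Bowtie 0.12.7, a short-read aligner. The authors deposited, for each ChIP replicate and for the combined set, a list of regions with start, end and a score, in Release 5 coordinates per the file headers. The unit of the score, the region caller, its thresholds, the use of the inputs and the making of the combined list are not given in the sources used here. The handling of reads that map to more than 1 place is not given either. The lists hold no read counts, so the depth is unknown and intervals for counting error could not be computed.

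Only entries for enriched regions were used, and the Uextra sequence was left out. Covered bases were counted after merging overlaps and clipping at sequence ends; the last 3L region ran 444 bases past the end in replicate 1 and 584 in the combined list. Sequence lengths came from the file headers. Overlap of 1 bp counted as shared. Score percentiles were taken within a list, and width classes were 4 equal groups per list. Values are means ± SD over the 2 replicate lists. No test was made across regions. The named regions were the 3 best scored and 2 widest of each compartment, all of XHet and YHet, and the 3 largest falls and rises on chromosome 4. The members and lists were chosen with earlier results of these data known. Alternatives were a stricter score, a 2 kb minimum width, merging within 1 kb, 50% reciprocal overlap, each list alone, other interval lengths, other sequence lengths and, added after seeing the data, leaving out split regions. Python 3.11.15, pandas 2.3.3, NumPy 2.4.6 and matplotlib 3.10.9 were used, and the interval functions were tested on simulated data.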

Additional observations from a re-analysis of the deposited data

Results flagged for a closer look

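The share of bases covered in the 1 Mb next to the centromere, minus that of the rest of the arm, was 1.25 percentage points on 3R, positive in both replicates (1.18 and 1.33), while on 2L, 3L and X it was negative in both. The arms therefore moved in opposite directions under the same comparison. The difference between the arms was not tested.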

How the results depend on the processing

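Of 108 alternatives to 23 values, 49 stayed within the replicate spread or a limit of 1.5 times, 57 moved and 2 changed direction. The Jaccard index, the change in covered bases and the rank change had no replicate spread, and each alternative to them was marked as moved. No value had a test to lose. No paired analysis was possible because only the ChIP libraries have region lists, and the inputs numbered like them have none here. Depth is unknown, and the cause of each change was not tested unless the filter itself removes regions. With regions under the list's median score left out, the direction of the replicate mean changed in 2 cases. These were chromosome 4 minus the rest of the large arms (-0.313 percentage points) and the proximal 3R minus its arm (-0.456).

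That filter also gave covered shares of 13.6% on chromosome 4, 0.207% on the autosomal Het scaffolds, 0.301% on U, 4.56% next to the centromeres and 13.9% on the rest of the arms. On chromosome 4 it gave 15.2 regions per Mb, a median width of 8252 bp, a distance of 54354 bp, 62.5% of regions in both lists, a Jaccard index of 0.587, a change in covered bases of -41.1% and a change of rank of -16.0. On the autosomal Het scaffolds it gave 33.3% in both lists, an index of 0.66 and a change of -8.67%. The proximal differences were -9.95 (2L), -13.1 (3L) and -12.0 (X) percentage points.

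With regions under 2 kb left out, the covered share was 0.645% on U, 9.96% next to the centromeres and 19.4% on the rest of the arms. Chromosome 4 then had a median width of 6397 bp, a score percentile of 35.3, an index of 0.81, a change of -17.2% and a rank change of -11.1. U had a percentile of 38.9, the autosomal Het scaffolds an index of 0.654 and a change of -28.5%, the proximal X a difference of -11.2 and the proximal 3R one of 0.988. The combined list gave covered shares of 2.15%, 1.04% and 11.0% on the autosomal Het scaffolds, U and the proximal intervals, a width of 4201 bp and a percentile of 30.1 on chromosome 4, a percentile of 35.3 on U, and differences of -17.2 (3L), -12.0 (X) and 1.61 (3R). The span of listed regions as length gave 2.36%, 0.909% and 11.3% in the same order.

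Intervals of 0.5 Mb gave -10.8 (2L), -17.1 (3L), -16.2 (X) and 7.23 (3R), and of 2 Mb -6.02, -13.7, -11.2 and 6.98. Merging regions within 1 kb gave a width of 6112 bp on chromosome 4. Ranking within width class gave percentiles of 25.7 there and 76.8 on U. The rank change on chromosome 4 was -10.1 with 50% reciprocal overlap and -10.6 without split regions. Without 2R the rest of the arms had 19.1%. With either replicate left out, chromosome 4 minus the rest ranged from 7.63 to 13.4 percentage points and the proximal 3R minus its arm from 1.18 to 1.33.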

Other observations

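The list of replicate 2 holds 1 entry marked as depleted, and it lies on chromosome 4, from 1057217 to 1058962, with a deposited score of -0.0865. It falls wholly inside an enriched region of replicate 1, from 1057045 to 1059116, with a score of 0.567 at percentile 8.82 of that list, and inside an enriched region of the combined list, from 1057128 to 1059049, with a score of 0.209. The same 1746 bp are thus listed as depleted in one replicate and enriched in the other. This entry was noticed after its values were seen and was left out of every count above.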
